A study of Mus musculus with 17 samples.

Results

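The 10 genes followed here across brain myeloid cells of mice were Gdf3, Emilin1, Sorbs3, Tmem221, Cyp4f18, Aoah, Slamf7, Klra2, Tmem176a and Tmem176b. They are 10 of the 13501 genes in the deposited table, and all 10 were among the 12074 that passed a filter on low values. They were chosen by their measured values, as genes read far more in transplanted cells than in microglia, so that difference is given as a description without a test. The filter did not depend on the transplanted cells for any of the 10, since all 10 also passed it on the microglia libraries alone, and the fewest reads of any of them in any library was 22.

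The study sorted DAPI-negative CD45+CD11b+ cells from mouse brain and sequenced their RNA in 17 libraries. Normal microglia (n = 3) came from untreated mice without the 5xFAD transgenes, which are human genes for familial Alzheimer's disease that lead to amyloid plaques. Microglia were also taken from untreated 5xFAD mice with wild-type Trem2 (n = 3) and with Trem2 knocked out (n = 3), Trem2 being a lipid-sensing receptor of microglia. Both transplanted groups came from Trem2-knockout 5xFAD hosts given a bone marrow transplant (BMT) and PLX5622, an inhibitor of the CSF1 receptor that depletes microglia; their sorted cells are labelled circulation-derived myeloid cells, from donors with wild-type Trem2 (n = 4) or Trem2 knockout (n = 4). Cell origin, the transplant and the drug therefore change together and cannot be told apart, and every transplanted host lacked Trem2. The labels give no age and no count of animals, and do not say that replicates were separate animals, so p-values measure the spread between these libraries only.

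Macrophages that enter the brain from the blood take up residence among or in place of microglia, which descend from yolk sac progenitors. The cells of marrow origin keep a different set of expressed genes even after long residence, and members of the MS4A family and the integrin Itga4 are known examples. The 10 genes cover a secreted growth factor (Gdf3), a matrix glycoprotein (Emilin1), an adhesion adaptor (Sorbs3), enzymes that inactivate inflammatory lipids (Cyp4f18, Aoah), surface receptors of immune cells (Slamf7, Klra2), and membrane proteins (Tmem176a, Tmem176b, Tmem221).

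Depth was 16044078 to 30606394 reads per library. Trem2 read 31205 to 53908 normalized counts in the groups with wild-type Trem2 and 3962 to 5965 in the knockout groups, with no overlap. Sall1, a transcription factor that marks resident microglia, read 3420 to 9289 in microglia libraries and 87.4 to 308.9 in transplanted libraries. The sort markers Itgam (CD11b) and Ptprc (CD45) were present throughout, Itgam at 2669 to 3510 in transplanted cells and 4363 to 7517 in microglia. Apoe took 12.3% to 16.2% of reads in transplanted libraries and 0.497% to 1.24% in microglia. Libraries are named by the S numbers of their columns, and values within a group are listed in that order. The chi-square of read counts divided by its degrees of freedom was 4.97 for the pair S30 with S31, 6.20 for S22 with S23 and 9.89 for S25 with S27, and 13.6 to 137 for every other pair inside a group, so each close pair may share a source. In all, 3 sets stood apart from the rest of their group: S25 and S27 from S26 among Trem2-knockout microglia, S34 among transplanted cells with knockout donors, and S30 and S31 among those with wild-type donors. In S25 and S27 neutrophil markers summed to 126773 and 136837, against 55409 in S26.

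All 10 genes were higher in each of the 8 transplanted libraries than in each of the 9 microglia libraries. This separation was shared by 5.27% of all tested genes and is what chose the 10, so nothing is read from it. Taking the mean of both transplanted groups minus the mean of the 3 microglia groups on the log2(normalized count + 1) scale, the 10 genes had a median difference of 3.74, against -0.02 over all tested genes. Gdf3 ranked 1 of the 12074, with a difference of 6.91. Klra2 (4.60), Emilin1 (4.20), Cyp4f18 (3.83), Sorbs3 (3.82), Tmem221 (3.66), Aoah (3.63) and Slamf7 (3.54) held ranks 11 to 65. Tmem176a (2.55, rank 227) and Tmem176b (1.96, rank 396) had the smallest differences and by far the highest levels. At the edge of the separation, the lowest transplanted library lay 27.3-fold above the highest microglia library for Gdf3 and 2.65-fold above it for Tmem176b.

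**Figure D1:**
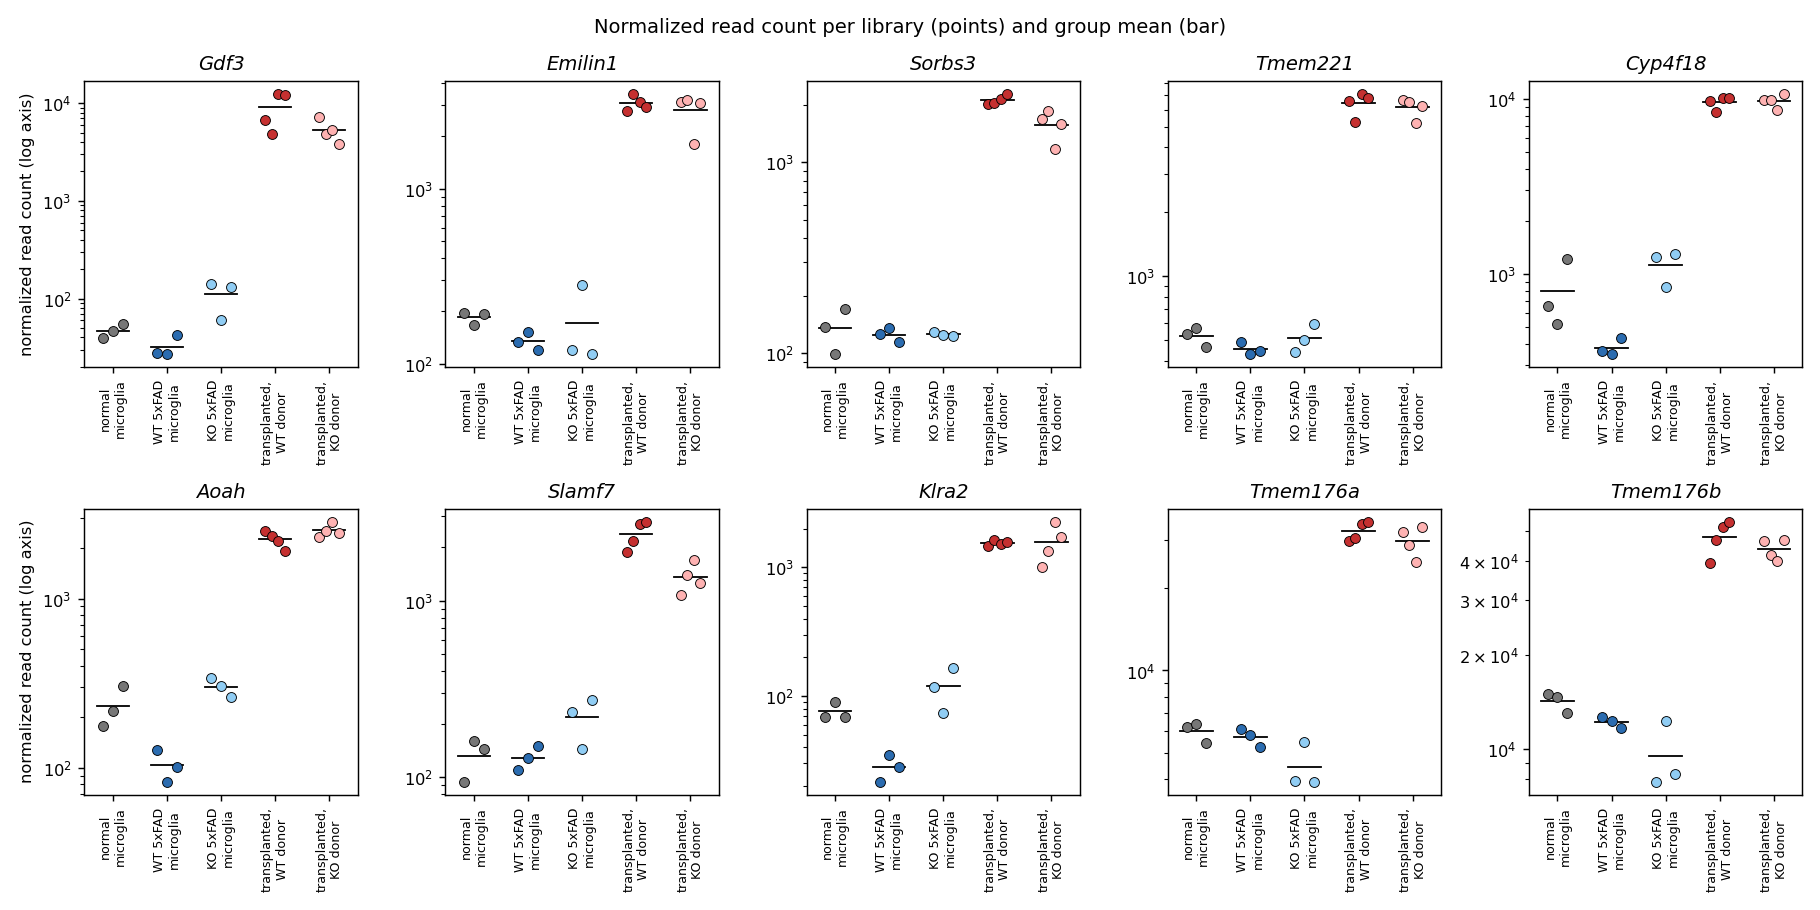
Normalized read count (log axis) of the 10 genes in each of 17 libraries (points), by group, with group means as bars. In each panel the 8 transplanted libraries lie above all 9 microglia libraries, and Cyp4f18, Aoah and Klra2 are lowest in wild-type 5xFAD microglia.

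Per kilobase of exon, a scale on which genes can be compared, the 10 genes spanned a wide range. Tmem176b and Tmem176a were among the most abundant transcripts of the transplanted cells, at 19298 and 8184 normalized counts per kb (percentiles 99.7 and 99.4 of all genes). They were also abundant in microglia, at 5042 and 1413 per kb (percentiles 98.9 and 95.3). Cyp4f18 (5220), Tmem221 (3922) and Gdf3 (2961) followed in transplanted cells, with Klra2 (824), Emilin1 (597), Sorbs3 (508), Slamf7 (410) and Aoah (402) below them. In microglia Gdf3 read only 26.2 per kb, at percentile 29.6, so Gdf3 moved from the lower part of the expressed genes to percentile 97.8. The lowest 4 in transplanted cells, Emilin1, Sorbs3, Slamf7 and Aoah, had library ranges that crossed. The range of Klra2 (529 to 1190 per kb) crossed those of Emilin1, Sorbs3 and Slamf7. That of Gdf3 (1586 to 5120) crossed those of Tmem221 and Cyp4f18. The order of genes whose ranges crossed is not separable from the spread over libraries.

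**Figure D2:**
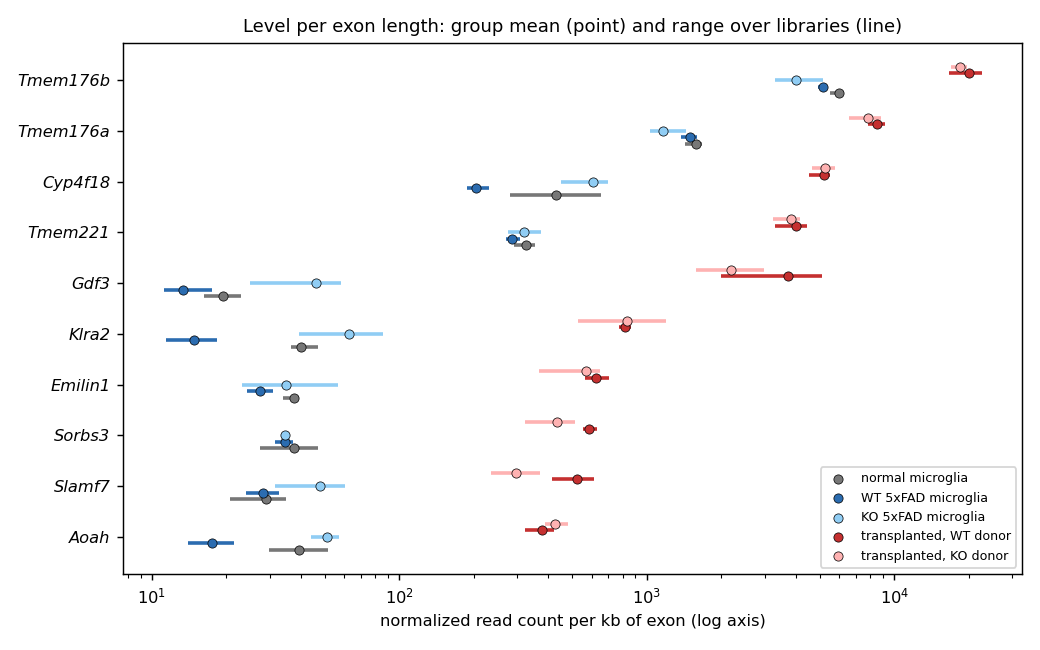
Normalized read count per kb of exon (log axis) for the 10 genes, as group means (points) with the range over the libraries of each group (lines). Tmem176b and Tmem176a were already at 5042 and 1413 per kb in microglia, whereas Gdf3 was near 26 per kb there.

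The sequence before the RefSeq start of 4 of these genes is shown because Cyp4f18, Aoah and Klra2 also differed among microglia and Slamf7 differed between donors, as described further on. These are the 250 bases before the RefSeq start on GRCm38.p6, 5′ to 3′ on the strand of the gene, with matches to a motif in capitals. RefSeq sequence was matched by symbol for 8 of the 10 genes, those other than Gdf3 and Sorbs3.
Aoah: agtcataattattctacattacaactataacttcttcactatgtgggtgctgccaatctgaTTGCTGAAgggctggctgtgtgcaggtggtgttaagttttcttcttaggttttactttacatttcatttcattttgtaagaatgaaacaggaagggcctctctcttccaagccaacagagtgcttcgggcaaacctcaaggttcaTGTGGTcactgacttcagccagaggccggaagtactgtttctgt
Klra2: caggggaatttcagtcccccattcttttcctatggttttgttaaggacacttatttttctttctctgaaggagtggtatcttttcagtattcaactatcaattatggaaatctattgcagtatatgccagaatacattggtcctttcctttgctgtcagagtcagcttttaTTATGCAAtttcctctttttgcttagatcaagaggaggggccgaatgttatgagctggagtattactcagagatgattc
Cyp4f18: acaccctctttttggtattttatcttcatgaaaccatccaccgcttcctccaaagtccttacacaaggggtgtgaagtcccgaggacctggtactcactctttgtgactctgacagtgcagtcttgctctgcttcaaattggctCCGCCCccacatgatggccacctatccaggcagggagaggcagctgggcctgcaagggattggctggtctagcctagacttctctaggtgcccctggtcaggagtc
Slamf7: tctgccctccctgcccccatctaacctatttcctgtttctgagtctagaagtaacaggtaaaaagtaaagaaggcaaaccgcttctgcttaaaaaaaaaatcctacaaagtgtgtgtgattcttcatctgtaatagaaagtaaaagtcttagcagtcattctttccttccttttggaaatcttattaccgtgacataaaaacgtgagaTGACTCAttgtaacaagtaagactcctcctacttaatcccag
The windows lie at chr13:20793863-20794112 on the plus strand (Aoah), and on the minus strand at chr6:131247363-131247612 (Klra2), chr8:72009627-72009876 (Cyp4f18) and chr1:171649000-171649249 (Slamf7). The RefSeq start of Slamf7 lies inside the longer GENCODE gene whose position is given further on, so its window is not upstream of that gene. Capitals mark a C/EBP match (TTGCNNAA) in Aoah and Klra2, a RUNX match (TGTGGT) in Aoah, an Sp/KLF match (GGGCGG) in Cyp4f18 and an AP-1 match (TGANTCA) in Slamf7, all read on both strands. Among 27025 windows of that length, 9.55% held the C/EBP motif, 14.2% the RUNX motif, 32.9% the Sp/KLF motif and 6.87% the AP-1 motif. Tmem221 also held the Sp/KLF motif, so the C/EBP and Sp/KLF motifs were each in 2 of 8 genes and the other 2 in 1 of 8. The other 7 motifs had no match in the 8 windows: PU.1 (GAGGAAGT, in 2.44% of all windows), an ETS core (AGAGGAAG, 3.64%), an interferon-stimulated response element (3.04%), an E-box (CACGTG, 6.05%), a TATA box (TATAAA, 13%), a MAF motif (TGCTGAC, 3.72%) and a nuclear receptor direct repeat, DR1 (0.333%). The PU.1 and ETS motifs overlap in letters. The motifs and the 4 windows were chosen after matches and results had been seen, and a match of letters does not show that a factor binds.

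Gdf3 encodes a secreted ligand of the TGF-beta family that acts through nodal and activin type receptors and is known in macrophages as a target of the nuclear receptor PPAR-gamma. It lies on chromosome 6 (chr6:122605403-122610087, minus strand, GRCm38). In microglia, Gdf3 read 39.2, 46.6 and 55.5 normalized counts in the normal libraries, 27.5, 27.1 and 42.3 in wild-type 5xFAD and 141, 60.2 and 132 in Trem2-knockout 5xFAD. In transplanted cells, Gdf3 read 6737, 4845, 12405 and 12159 with wild-type donors and 7242, 4876, 5284 and 3844 with knockout donors. All transplanted values were 3844 or more, with S30 and S31 the highest, and no microglia library passed 141. The mean with wild-type donors was 280-fold that of wild-type 5xFAD microglia and the mean with knockout donors was 47.8-fold that of knockout 5xFAD microglia. The ratios differ in part through the microglia, among which S25 and S27 read highest.

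In a list of receptors and signal carriers for such ligands, most genes fell or were not called. Of 10 other tested genes of activin and nodal type signalling, 1 rose and 6 fell in transplanted cells by limma with Benjamini-Hochberg adjustment, where 19.3% of all tested genes rose and 20.2% fell; the median of the 10 was -0.55. The fall was deepest for Bmpr1a, a type I receptor for bone morphogenetic proteins, at 247 to 376 normalized counts in microglia and 2.80 to 26.3 in transplanted cells (log2 difference -4.58). Acvr2b, an activin receptor, fell by 1.45 and Smad3, the signal carrier of these receptors, fell by 0.74 on the log2 scale. Gdf15, a distant stress-induced relative, was the gene of the list that rose (1.98). Acvrl1, a related receptor gene outside the list, is named further on for its likeness to the 10 genes. It ran from 954 to 1582 in microglia and 3930 to 6234 in transplanted cells (2.03). Among 4 nuclear receptor genes, Pparg (1.69) and Nr1h3 (LXR-alpha, 1.31) rose from low levels, whereas the more abundant Rxra and Rxrb were not called. Pparg averaged 107 with wild-type and 68.6 with knockout donors, against 12.4 in wild-type and 61.1 in knockout 5xFAD microglia. Nr1h3 averaged 138 and 48.5 against 33.6 and 48.6, in the same order. The comparison of transplanted cells with microglia for genes other than the 10, here and in what follows, was added after the data had been seen.

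Emilin1 is a glycoprotein of elastic fibres, and Sorbs3 (vinexin) is an adaptor that binds vinculin at cell adhesions. Emilin1 lies at chr5:30913402-30921277 on the plus strand and Sorbs3 at chr14:70180468-70211989 on the minus strand. In microglia, Emilin1 read 194, 166 and 194 normalized counts in the normal libraries, 133, 152 and 119 in wild-type 5xFAD and 120.3, 280.2 and 114 in Trem2-knockout 5xFAD. In transplanted cells, Emilin1 read 2789, 3479, 3141 and 2933 with wild-type donors and 3118, 3204, 1808 and 3089 with knockout donors. Library S34 was lowest among transplanted libraries, and S26 was highest among microglia. Sorbs3 read 98.9 to 171 in microglia and 1165 to 2275 in transplanted cells, again lowest in S34, and its exons overlap an antisense gene by 84 bases. Genes around them were mixed: of 9 genes of the EMILIN family and its elastic matrix partners 2 rose and 1 fell, and of 10 SORBS and focal adhesion genes 1 rose and 3 fell, with medians of -0.09 and -0.14. Emilin2, the closest relative in the list, rose (1.40), as did Itga4, an integrin chain through which cells bind EMILIN1 (3.70). The gene that fell was Tgfb1 (-0.49). The more abundant integrin chains Itga9 (0.15) and Itgb1 (-0.09) were not called. Tln1, the abundant talin that links integrins to actin, had a difference of -0.02 and was not called.

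Emilin1 is also made by vessel and connective tissue cells, so vessel markers were summed in each library. The 12 endothelial and mural markers summed to 1087 to 3640 in microglia and 304 to 2588 in transplanted cells. They summed to 304 to 675 in the 4 knockout-donor libraries, where Emilin1 read 1808 to 3204, and to 457 to 2588 with wild-type donors. Of the 12 markers 4 fell in transplanted cells, and 8 without S30 and S31. The part of vessel cells in the level of Emilin1 was not tested.

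Tmem221 encodes a membrane protein of little known function. It lies on chromosome 8, 429.6 kb from Cyp4f18, at chr8:71554238-71558871 on the minus strand. By the ratio of its highest to its lowest library it was the steadiest of the 10 in microglia, at 432 to 597 normalized counts, and ran from 5195 to 7101 in transplanted cells.

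Cyp4f18 is a cytochrome P450 that hydroxylates and so inactivates leukotriene B4, a chemoattractant of neutrophils, and lies at chr8:71988482-72009626 on the minus strand. In microglia, Cyp4f18 read 655, 518 and 1212 normalized counts in the normal libraries, 361, 349 and 428 in wild-type 5xFAD and 1243, 837 and 1291 in Trem2-knockout 5xFAD. In transplanted cells, Cyp4f18 read 9791, 8431, 10066 and 10161 with wild-type donors and 9798, 9894, 8659 and 10662 with knockout donors. Transplanted libraries varied little between and within donors, whereas microglia spread over a range of several fold, lowest in wild-type 5xFAD. Its exons overlap those of Zfp961, on the opposite strand, by 181 bases, and the library kit does not mark strand. Of 10 other genes of leukotriene synthesis and breakdown 4 rose and 3 fell, with a median of 0.09. The P450 relatives Cyp4f17 (2.53) and Cyp4f16 (1.74) rose most. Cyp4f17 was barely read, at 0 to 3.81 in microglia and 2.13 to 25.6 in transplanted cells, with overlap. Cyp4f16 ran from 266 to 418 in microglia and 910 to 1258 in transplanted cells. The synthetic enzymes moved less: Alox5 (0.48) and Lta4h (0.22) rose, the partner protein Alox5ap fell by 0.20, and Ltc4s, which makes leukotriene C4 instead, fell by 1.13.

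Aoah encodes acyloxyacyl hydrolase, which removes fatty acids from bacterial lipopolysaccharide and ends its action, and lies at chr13:20794113-21036617 on the plus strand. In microglia, Aoah read 176, 217 and 306 normalized counts in the normal libraries, 127, 82.9 and 101 in wild-type 5xFAD and 339, 305 and 261 in Trem2-knockout 5xFAD. In transplanted cells, Aoah read 2506, 2355, 2180.5 and 1916 with wild-type donors and 2306, 2516, 2842 and 2449 with knockout donors. Wild-type 5xFAD microglia were lowest without overlap, and the transplanted donors overlapped. Of 12 other genes of lipopolysaccharide recognition 2 rose and 3 fell, with a median of -0.12. The co-receptor Cd14 rose by 0.59 and Irak4 by 0.31, Cd180 fell by 1.04, and the receptor itself, Tlr4, had a difference of 0.27 and was not called. Aoah was chosen for its difference, so nothing is read from its size beside those of this list.

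Slamf7 is a self-binding receptor of the SLAM family on natural killer (NK) cells, plasma cells and macrophages, and signals through the adaptor EAT-2, the product of Sh2d1b1. It lies at chr1:171632403-171653035 on the minus strand, and 423 bases of its exons overlap an antisense gene. In microglia, Slamf7 read 94.5, 159.8 and 144 normalized counts in the normal libraries, 110.1, 128 and 149.8 in wild-type 5xFAD and 235, 144 and 275 in Trem2-knockout 5xFAD. In transplanted cells, Slamf7 read 1892, 2187, 2704 and 2796 with wild-type donors and 1074, 1398, 1694 and 1254 with knockout donors. All 4 wild-type-donor libraries lay above all 4 knockout-donor libraries. Of 12 other tested SLAM receptors and adaptors 8 rose and 2 fell in transplanted cells, with a median of 0.93. Sh2d1b1 was the largest, at 36.3 to 99.7 normalized counts in microglia and 833 to 1194 in transplanted cells (3.88), and its copy Sh2d1b2, at 26.8 or less in every library, rose by 3.44. Ly9 rose by 1.50 and Slamf9 by 1.17, while Slamf1 fell by 2.46, from 72.3 to 192 in microglia to 9.10 to 34.8.

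Klra2 encodes Ly49B, an inhibitory lectin receptor that, unlike most Ly49 receptors of NK cells, is known on myeloid cells. It lies at chr6:131219223-131247362 on the minus strand. In microglia, Klra2 read 69.3, 89.4 and 69.1 normalized counts in the normal libraries, 21.6, 34.6 and 28 in wild-type 5xFAD and 118, 74.4 and 164 in Trem2-knockout 5xFAD. In transplanted cells, Klra2 read 1468, 1636, 1518 and 1562 with wild-type donors and 1005, 1344, 2259 and 1719 with knockout donors. Transplanted libraries with wild-type donors were the tightest group, those with knockout donors spread on both sides of them, and wild-type 5xFAD microglia were lowest. Ly49 genes are related copies, so reads may be shared between them and the value of Klra2 is uncertain to that extent. The highest group mean of the other tested Klra genes was 69.1, of Klra9 with knockout donors. Sharing of reads was not tested. Of 16 other genes, 15 for Ly49 and related lectins and Ptpn6 for a phosphatase that inhibitory receptors recruit, 14 rose (Ptpn6 by 0.15) and the other 2 were not called, with a median of 1.55, led by Clec12a (3.98) and Klra1 (3.36). The count was 9 of 16 without S30 and S31, so part of this list rests on those libraries.

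T and NK cells also make Slamf7, Sh2d1b1 and Ly49 receptors, and most of their markers were also higher in transplanted cells. The 15 T and NK cell markers summed to 298 to 2014 in microglia and 486 to 6055 in transplanted cells, and 12 of the 15 rose. In the transplanted library S28 the sum was 486, below the level of 6 of the 9 microglia libraries, and Klra2 read 1468 there and Slamf7 1892. Each was lowest of the wild-type-donor libraries there. With knockout donors the order was the other way. The sum was highest in S32 (6055), where Klra2 (1005) and Slamf7 (1074) were lowest. It was lowest in S34 (2527), where Klra2 (2259) and Slamf7 (1694) were highest. The T and NK marker list shares Klrb1c and Klrd1 with the Ly49 list. The 7 B and plasma cell markers summed to 809 to 2902 in microglia and 183 to 1069 in transplanted cells, and 3 rose and 1 fell. The part of T, NK, B and plasma cells in these levels was not tested.

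**Figure D3:**
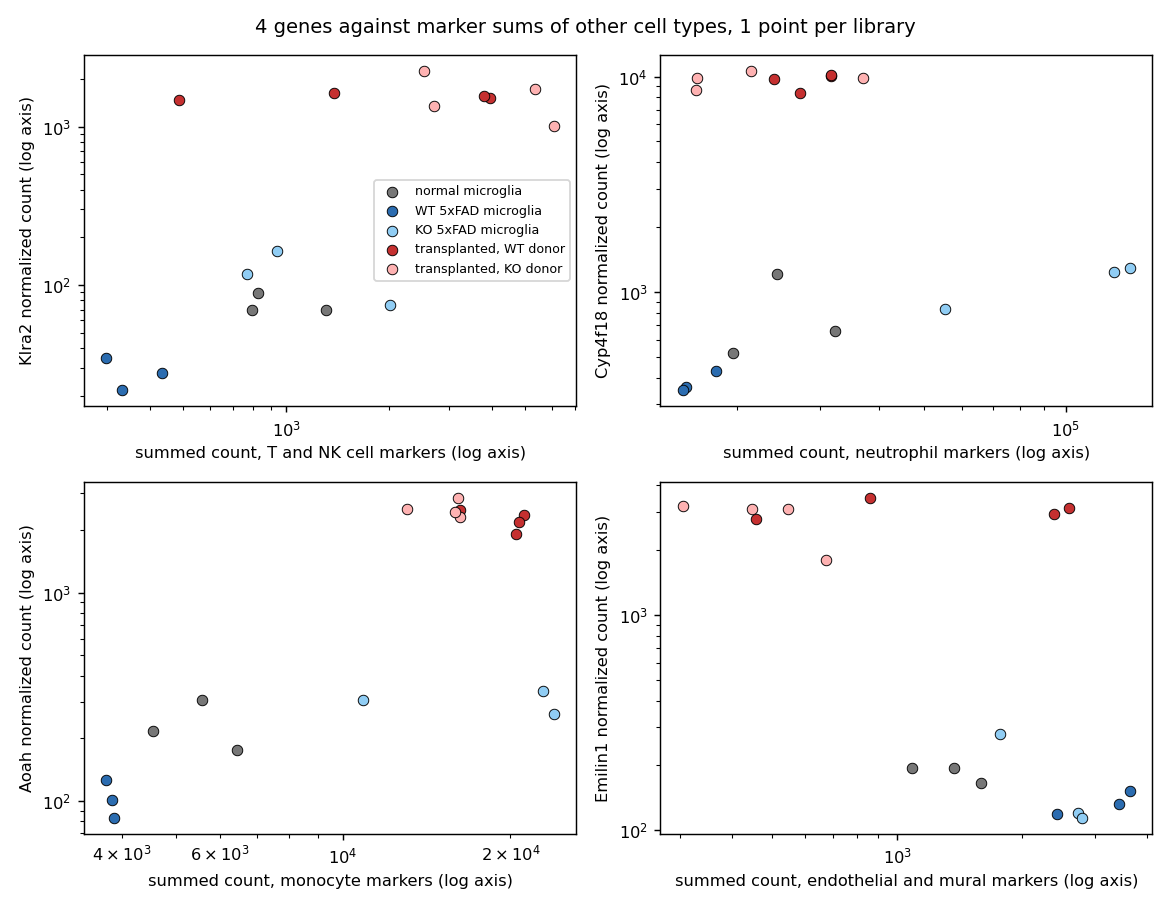
Normalized counts of 4 genes against summed markers of another cell type in the same library (both axes log), 1 point per library. In each panel the transplanted libraries lie above the microglia libraries, the gap by which the genes were chosen. Among microglia, Cyp4f18 and Aoah are lowest in wild-type 5xFAD libraries, as are the neutrophil and monocyte marker sums. The part of other cells in these levels was not tested.

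Tmem176a and Tmem176b encode membrane-spanning proteins of endosomes that resemble the MS4A family. They lie head to head on chromosome 6, at chr6:48840919-48847071 on the plus strand and chr6:48833818-48841496 on the minus strand, and their exons overlap by 81 bases, in which reads of 1 gene cannot be told from reads of the other without strand. In microglia, Tmem176a read 6195, 6380.2 and 5417 normalized counts in the normal libraries, 6105, 5807 and 5252 in wild-type 5xFAD and 3918, 5465 and 3909.8 in Trem2-knockout 5xFAD. In transplanted cells, Tmem176a read 29848, 30587, 34492 and 35116 with wild-type donors and 32086, 28755, 24978 and 33581 with knockout donors. In microglia, Tmem176b read 14929, 14697 and 13014 normalized counts in the normal libraries, 12594, 12286 and 11649.5 in wild-type 5xFAD and 7839.9, 12273 and 8312 in Trem2-knockout 5xFAD. In transplanted cells, Tmem176b read 39549, 46663, 51262 and 53456 with wild-type donors and 46336, 41818, 40144 and 46814 with knockout donors. Both genes were lowest in S25 and S27, and their donor groups overlapped. They did not rise by the same factor: the ratio of Tmem176a to Tmem176b normalized counts was 0.415 to 0.50 in microglia and 0.622 to 0.755 in transplanted cells, without overlap. Of 9 tested MS4A genes 8 rose and 1 was not called, with a median of 2.64. Ms4a7, a marker of marrow-derived brain macrophages, rose by 4.75, from 335 to 1309 in microglia to 15783 to 26888 normalized counts.

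Other genes known from brain macrophages of marrow origin rose as well, although that list was drawn up with earlier results of these libraries known. Of 13 such genes 11 rose and 2 were not called, with a median of 3.12. Beside Ms4a7 these were led by Runx3 (4.15), a transcription factor, Clec12a (3.98), Itga4 (3.70) and Cybb (3.51), the oxidase subunit. Ccr2 and Cd300e, which mark blood monocytes, were not called. Ms4a7, Ms4a6b, Ms4a6c, Clec12a and Itga4, among the 11 that rose, were already counted in the MS4A, Ly49 or EMILIN lists.

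**Figure D4:**
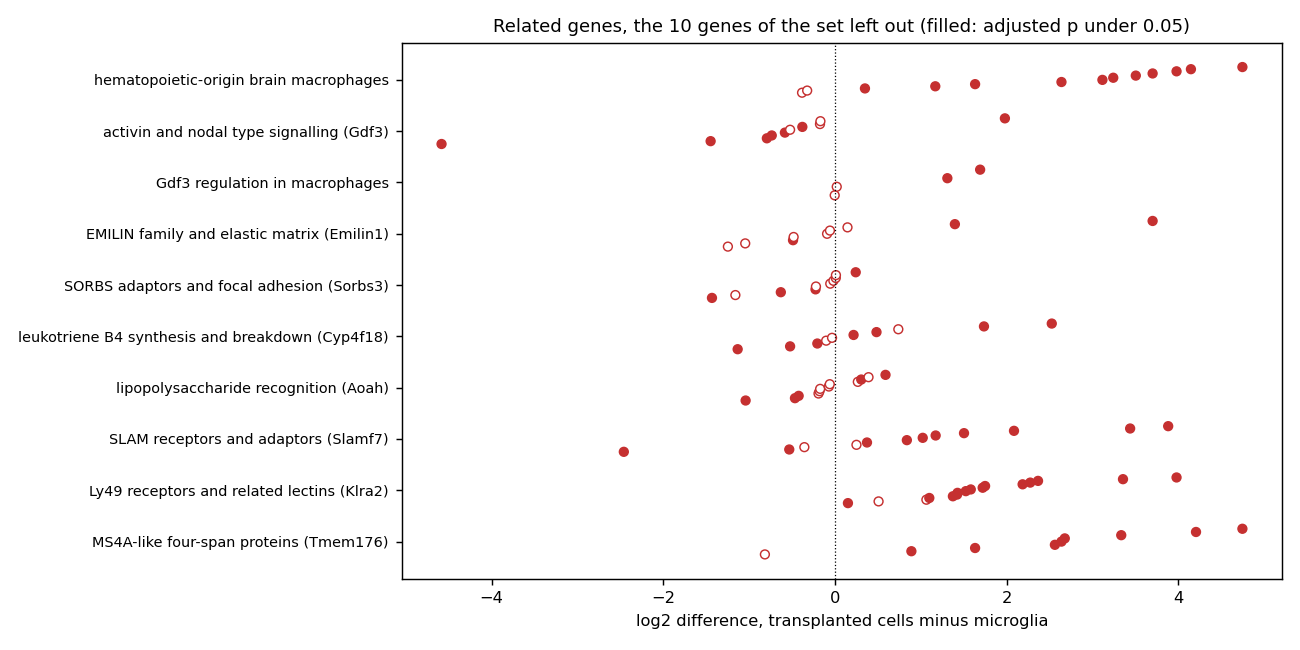
Log2 difference, transplanted cells minus microglia, of related genes by list, with the 10 genes themselves left out (filled points: adjusted p under 0.05 by limma). Genes of the marrow-origin, SLAM, Ly49 and MS4A lists lie mostly to the right, and those of activin and nodal type signalling mostly to the left. Some genes stand in several lists.

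Markers of monocytes, neutrophils and border-associated macrophages were summed in the same way. The 17 monocyte markers summed to 13045 to 21161 in transplanted cells, 3750 to 6435 in normal and wild-type 5xFAD microglia, and 10841 to 23935 in knockout 5xFAD microglia, so the highest sums were in microglia libraries S25 and S27. Gdf3, Aoah and Klra2 read 132 to 141, 261 to 339 and 118 to 164 in those 2 libraries and in transplanted cells no lower than 3844, 1916 and 1005. Of 16 tested monocyte markers 4 rose in transplanted cells, Itgal (3.50), Lyz1 (3.21), Ms4a4c (2.56) and S100a6 (0.68), and 2 fell. The number that rose was 3 without S30 and S31 and 6 without S25, S27 and S34, both settings losing the 2 that fell, and 6 fell without S26. The defining monocyte gene Ly6c2 (0.21) was not called, and read 337 to 932 in transplanted cells and 1042 to 3032 in knockout microglia. Neutrophil markers summed to 16351 to 37024 in transplanted cells, 19567 to 32337 in normal, 15327 to 18073 in wild-type 5xFAD and 55409 to 136837 in knockout microglia. The 10 border-associated macrophage markers summed to 14719 to 23562 in transplanted cells and 5140 to 14199 in microglia, without overlap. Of these markers 4 rose, Clec4n (2.59), Siglec1 (2.23), Pf4 (2.15) and Mrc1 (2.06), and 2 fell. The part of these cells in the levels of the 10 genes was not tested. In bulk samples, fewer cells of a type and less RNA per cell cannot be told apart.

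The question of donor Trem2 was addressed between the 4 wild-type-donor and 4 knockout-donor libraries, a comparison that did not choose the genes. Of the 10, only Slamf7 was called by limma, which is 1 of 10 where 3.75% of all tested genes were called higher. Slamf7 was 1.77-fold higher with wild-type donors, at 2395 ± 429 (SD, n = 4) against 1355 ± 262 (SD, n = 4) normalized counts (log2 difference 0.82, SE 0.22, limma with Benjamini-Hochberg adjusted p = 0.0333). Its call was lost without S30, S31, S32, S33 or S35 (adjusted p by limma 0.0616 to 0.122). Without S30 and S31 together the difference was 0.61 with limma adjusted p = 0.412, and the 2 remaining wild-type-donor libraries still lay above the 4 knockout-donor libraries. The T and NK marker sum ran the other way, at 486 to 3943 with wild-type and 2527 to 6055 with knockout donors, with overlap. Oligodendrocyte markers do go with it: their sum was 7062 to 24872 with wild-type and 4533 to 6234 with knockout donors, and 6 of 10 were called higher. Endothelial and mural markers do so too, with 4 of 12 called higher and a median difference of 1.47. Both sums were highest in S30 and S31 (24574 and 24872 for oligodendrocyte markers, against 7062 and 11101 in S28 and S29), where Slamf7 was also highest, and their part in the result was not tested.

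The other 9 genes were not called between donors, with limits that differ from gene to gene. Sorbs3 was 0.45 higher on the log2 scale with wild-type donors (95% interval 0.10 to 0.79, limma adjusted p = 0.0972), and its groups did not overlap. Gdf3 was 0.69 higher (0.05 to 1.34, limma adjusted p = 0.160), a difference that fell to 0.14 without S30 and S31. For Tmem221 (-0.20 to 0.32), Tmem176a (-0.13 to 0.39), Tmem176b (-0.16 to 0.40), Cyp4f18 (-0.43 to 0.39), Aoah (-0.53 to 0.17) and Klra2 (-0.49 to 0.55) the intervals lie within a 1.5-fold change in either direction. That of Emilin1 (-0.32 to 0.66) reaches past it. Over all genes 453 were called higher and 361 lower, 366 and 624 when libraries were scaled by TMM factors, and 10 and 10 without S30 and S31. Among related genes called by limma, Nr1h3 (LXR-alpha) was higher with wild-type donors by 1.55 and Cd14 by 0.86, while Tlr4 (-0.86), Ms4a6b (-0.57) and Klra7 (-2.12) were lower on the log2 scale.

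Among 5xFAD microglia, where cells were not transplanted, 4 of the 10 genes differed with Trem2 genotype: Klra2, Aoah, Cyp4f18 and Gdf3 were lower with wild-type Trem2. Over all tested genes 2.5% were called lower, and the median difference of the 10 was -0.47 against 0.01 over all genes. Klra2 was 28.1 ± 6.52 with wild-type and 119 ± 44.6 with knockout Trem2 (SD, n = 3 each), a difference of -1.99 (SE 0.29, limma adjusted p = 0.000267). Aoah was 104 ± 22.1 against 302 ± 39.1 (-1.55, SE 0.19, limma adjusted p = 6.87e-05). Cyp4f18 was 379 ± 43.0 against 1124 ± 249 (-1.54, SE 0.23, limma adjusted p = 0.00033). Gdf3 was 32.3 ± 8.67 against 111 ± 44.3 (-1.69, SE 0.36, limma adjusted p = 0.00824). None of these 4 pairs of groups overlapped. Slamf7 (-0.71, limma adjusted p = 0.112) was not called, and neither were Tmem176a (0.38) and Tmem176b (0.39), which were higher with wild-type Trem2, nor Emilin1, Sorbs3 and Tmem221.

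**Figure D5:**
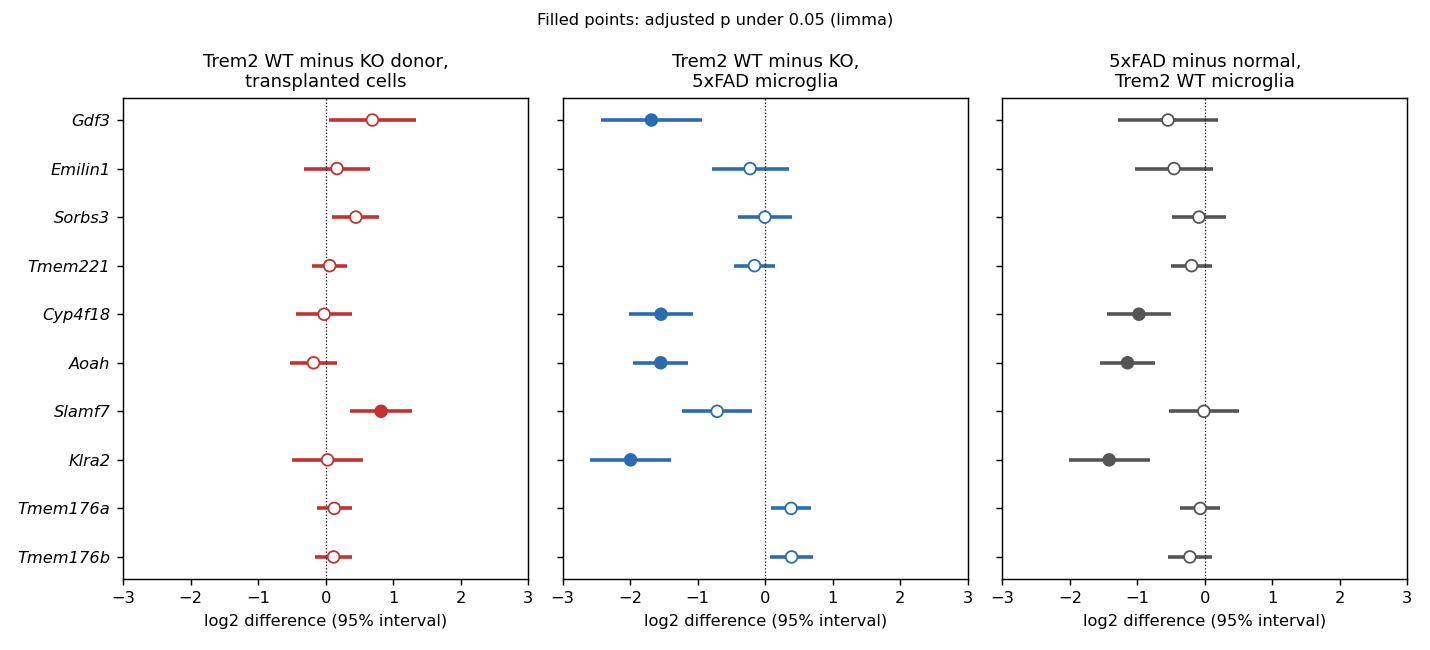
Log2 difference with its 95% interval for the 10 genes in 3 comparisons (filled: adjusted p under 0.05 by limma). Slamf7 is the filled point between donors; Gdf3, Cyp4f18, Aoah and Klra2 are filled among 5xFAD microglia, and the last 3 also against normal microglia.

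Markers of several other cell types were higher in the knockout microglia. Of 16 tested monocyte markers 12 were lower with wild-type Trem2, as were 10 of 13 neutrophil markers, 3 of 15 T and NK cell markers and 3 of 10 border-associated macrophage markers, and their part in the result was not tested. T and NK cell markers summed to 298 to 434 with wild-type and 767 to 2014 with knockout Trem2, highest in S26. B and plasma cell markers summed to 953 to 1003 with wild-type and 1339 to 2902 with knockout Trem2, and 0 of 7 were called. Monocyte and neutrophil markers peaked in S25 and S27. Without both, and so with 1 knockout library left whose spread is taken from the other groups, the differences were -1.57 for Aoah (limma adjusted p = 0.00322), -1.40 for Klra2 (0.0475), -1.15 for Cyp4f18 (0.0632) and -0.91 for Gdf3 (0.453). Gdf3 also lost its call without S25 or without S27 alone (limma adjusted p = 0.0578 and 0.0533). Without S26 instead, 7 of the 10 were called, with Slamf7 lower (-0.98) and Tmem176a (0.54) and Tmem176b (0.59) higher with wild-type Trem2.

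Among the lists of related genes, the Trem2 difference in microglia was mixed. With wild-type Trem2, 9 of 13 marrow-origin genes were lower, among them Ms4a7 (-1.46) and Clec12a (-1.89), and 1, Axl, was higher (2.13). Ltb4r1, the leukotriene B4 receptor, was lower (-2.71), and so was Pparg (-2.40, all on the log2 scale). Called lower were 4 of 9 MS4A genes, 4 of 16 of the Ly49 list, 3 of 10 of the leukotriene list and 1 of 12 of lipopolysaccharide recognition. Of these, Ms4a7, Ms4a6b, Ms4a6c and Clec12a are also counted among the marrow-origin genes. The lists of activin and nodal type signalling (median 0.14), of SORBS and focal adhesion (0.30) and of SLAM genes (0.07, with 1 of 12 called higher) did not lean that way.

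Against normal microglia, wild-type 5xFAD microglia had lower Klra2, Aoah and Cyp4f18, where 0.952% of all tested genes were called lower. This comparison shares its wild-type 5xFAD libraries with the preceding one, and those libraries are low in both. Klra2 differed by -1.42 (SE 0.29, limma adjusted p = 0.00615), from 76.0 ± 11.7 in normal microglia (SD, n = 3). Aoah differed by -1.15 (SE 0.19, limma adjusted p = 0.00138), from 233 ± 66.5. Cyp4f18 differed by -0.98 (SE 0.23, limma adjusted p = 0.0174), from 795 ± 367, where library S36 read 1212. The call of Cyp4f18 was lost without S22, S23 or S36 (limma adjusted p = 0.0801, 0.0878 and 0.0794), and the difference was -0.62 without S36. The other 7 genes were not called. Neutrophil markers (4 of 13), border-associated macrophage markers (4 of 10) and T and NK cell markers (2 of 15) were called lower as well. T and NK cell markers summed to 793 to 1310 in normal and 298 to 434 in wild-type 5xFAD microglia. Of 13 marrow-origin genes 5 were called lower and 1 higher. The part of these cells in the result was not tested.

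The difference between the 2 Trem2 comparisons was tested directly as an interaction, the Trem2 difference among transplanted cells minus that among 5xFAD microglia. It was positive for 5 of the 10 genes, where 1.95% of all tested genes were called positive, and it draws on the same libraries as the tests already given. Positive calls were also made for 11 of 16 monocyte markers (median 2.48), 10 of 13 neutrophil markers (median 4.50) and 3 of 10 border-associated macrophage markers, and their part in the result was not tested. The values were 2.38 for Gdf3 (SE 0.47, limma adjusted p = 0.00821), 2.02 for Klra2 (SE 0.38, limma adjusted p = 0.00577), 1.54 for Slamf7 (SE 0.33, limma adjusted p = 0.0143), 1.52 for Cyp4f18 (SE 0.30, limma adjusted p = 0.00805) and 1.37 for Aoah (SE 0.26, limma adjusted p = 0.00577). For Klra2, Aoah and Cyp4f18 the value comes from the microglia, since their donor groups differed by 0.03, -0.18 and -0.02. For Gdf3 and Slamf7 both parts add, but the donor part of Gdf3 (0.69) and the microglia part of Slamf7 (-0.71) were not called. Emilin1 (0.39), Sorbs3 (0.45), Tmem221 (0.22), Tmem176a (-0.26) and Tmem176b (-0.27) were not called. Without S25 and S27, Aoah was the 1 gene still called, and without S30 and S31 the called genes were Aoah and Klra2.

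Genes most like the 10 in pattern were found by Pearson's r with their mean standardized profile over 17 libraries. These were Stom (0.992), Tgfbi (0.992), Acvrl1 (0.992), Arhgap19 (0.991), Myof (0.990) and Cp (0.989). Each was higher in every transplanted than in every microglia library, for example Tgfbi at 1765 to 3024 and 11637 to 14971 and Myof, a membrane repair protein, at 42.3 to 79.3 and 564 to 974 normalized counts. The likeness rests on the gap that chose the 10 genes. Within the 8 transplanted libraries, after each donor group was centred, Slamf7 was most like Bcl2a1d (r = 0.997) and B2m (0.981), Gdf3 most like Ccm2l (0.993) and Rgs16 (0.986), and Emilin1 most like Xylb (0.996) and Ehbp1l1 (0.996). Aoah was most like Map4k5 (0.988) and Smg1 (0.987), Klra2 most like Tnpo1 (0.964) and Nabp1 (0.963), and Cyp4f18 most like Il6st (0.992) and Rmnd5b (0.991). Sorbs3 was most like Gpr89 (0.988) and Ptbp1 (0.986), Tmem221 most like Yars (0.989) and Tmem86a (0.986), Tmem176a most like Edem2 (0.993) and Slc19a1 (0.990), and Tmem176b most like Ltb (0.989) and Adam3 (0.988). With 8 libraries and 12074 genes, values this high describe these libraries only, which also share depth and the standing apart of S34.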

How the data were processed

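Cells were sorted into TRIzol LS, per the labels' protocols, and the SMART-Seq v4 low-input cDNA kit used on their RNA does not mark strand. Per the submitters' processing notes, the authors named DESeq2 (as version 3.17), RSEM, HTSeq, STAR 2.5.2b and bcl2fastq, and the builds GRCm38.p6 and mm10. Not given in the sources used here is which tool counted, with which annotation and filter. The deposited values are a normalized signal per gene and library: 100.0% of values were whole multiples of 1 step per library (tolerance 0.02), as read counts scaled by a single size factor are. In S20 that step is so near 1 that low values alone do not show it. Outside the normal group, columns show a group but no distinct replicate number.

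Values were analysed as log2(value + 1), keeping genes at 10 or more in at least 3 libraries (12074 kept, 1427 removed). All 17 libraries entered a single limma fit (3.58.1, eBayes with trend, R 4.3.3) that gave each group its own mean. Tests were two-sided, and the threshold was 0.05 for the p adjusted by Benjamini-Hochberg over all tested genes. Differences on this scale understate changes of low genes. The fit was tested on simulated data. Alternatives were pseudocounts of 0.5 and 5, no filter, TMM scaling, edgeR 4.0.16 and DESeq2 1.42.0 on the recovered reads, fewer groups, averaged library pairs and left-out libraries. Settings without S25 and S27 (with or without S34), and all tests on related genes between transplanted cells and microglia, were added after the data had been seen.

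The 10 genes and all lists were chosen with earlier results of these data known. Named from each list were called genes and its most abundant ones, except where a gene is not reported here. Positions are from GENCODE vM21 (GRCm38), and exon length is the union of all exons. Genes most alike were the 6 with the highest r to the mean profile, and 2 for each gene within transplanted libraries.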

Additional observations from a re-analysis of the deposited data

Results flagged for a closer look

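Emilin1 in library S34, of the knockout-donor group, read 1808 normalized counts, and its gap to the next library took up 0.917 of the range of the 4 libraries, above Dixon's 95% critical value for 4 samples. Chance gives about 1 such case in 20 groups. Without S34 the difference of Emilin1 between donors turned from 0.17 to -0.029.

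For 5 genes the Trem2 difference in transplanted cells minus that in 5xFAD microglia passed the limma test of the difference itself. The values were 2.38 for Gdf3, 2.02 for Klra2 (2.025 before rounding), 1.54 for Slamf7 (1.535), 1.52 for Cyp4f18 and 1.37 for Aoah. Across the alternatives the adjusted p of limma, edgeR or DESeq2 ran from 6.58e-06 to 0.188 for Gdf3, 1.94e-05 to 0.0956 for Klra2, 0.00014 to 0.257 for Slamf7, 6.92e-05 to 0.171 for Cyp4f18 and 1.17e-05 to 0.0359 for Aoah.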

How the results depend on the processing

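No paired analysis was possible because outside the normal group the columns carry no distinct replicate number, so the planned replicate block was not run. Between donors 1 of the 10 genes was called. It was 2 with DESeq2 (Sorbs3 added), and 0 with only the groups compared, with closest pairs averaged, and without S30 and S31. For the interaction, 5 became 1 with pairs averaged, 2 without S30 and S31, 1 without S25 and S27 and 3 without S25, S27 and S34. With 1 library left out at a time, the counts ran from 0 to 1 between donors, 3 to 7 for Trem2 in microglia, 2 to 3 for 5xFAD and 4 to 5 for the interaction, and the median difference of the 10 from 3.71 to 3.79.

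Signs turned for small differences. Between donors, Tmem221 was -0.011 with TMM, -0.011 with edgeR, -0.058 without S30 and S31 and -0.018 without S25, S27 and S34. Klra2 was -0.043 with TMM, -0.11 with edgeR and -0.033 with DESeq2, Tmem176b was -0.024 without S30 and S31, and Emilin1 was -0.029 without S25, S27 and S34. Without S25 and S27, with or without S34, Sorbs3 was 0.013 and Tmem176b -0.012 for Trem2 in microglia, and in the interaction Tmem176a was 0.065 and Tmem176b 0.13 (0.09 with S34 left out too). For 5xFAD, Slamf7 was 0.044 with pairs averaged. Leaving out 1 library gave, between donors, -0.029 to 0.25 for Emilin1, -0.018 to 0.15 for Tmem221, -0.077 to 0.041 for Cyp4f18 and -0.17 to 0.22 for Klra2. It gave -0.45 to 0.19 for Emilin1 and -0.060 to 0.056 for Sorbs3 in the Trem2 microglia test, -0.30 to 0.096 for Sorbs3 and -0.24 to 0.14 for Slamf7 for 5xFAD, and -0.024 to 0.62 for Emilin1 in the interaction. The cause was not tested.

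Over all genes, 814 calls between donors became 1695 with DESeq2, 67 with only the groups compared, 30 with pairs averaged and 20 without S30 and S31. For Trem2 in microglia, 615 calls became 1001 with DESeq2, 278 with only the groups compared, 165 with pairs averaged and 230 without S25 and S27. For 5xFAD, 457 became 769, 1757 and 245 under the first 3 of these settings, and for the interaction 341 became 875 with DESeq2, 72 with pairs averaged, 149 without S30 and S31 and 163 without S25 and S27. With 1 library left out these counts ran from 113 to 1881, 297 to 3666 (the highest without S26), 272 to 325 and 185 to 1665 in that order. Of the 10 genes, Klra2 had the fewest reads in a library, 22, and so the largest counting error.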
